A study of Mus musculus with 4 samples.

Results

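Regulators of small GTPases were described in a list of C-to-U sites, used to map N6-methyladenosine (m6A), in the RNA of the cortex of young mice. The members were all genes of the list whose symbol begins with Arhg, Rasg, Rapg, Dock, Srgap, Tbc1d, Agap, Asap, Iqsec or Elmo. This rule took in 47 of the 4206 listed genes and 393 of the 28412 listed sites, or 1.38% of the sites. The sites came from scDART-seq, in which the cytidine deaminase APOBEC1, fused to the m6A-binding YTH domain, converts a cytosine beside m6A to uracil, so that a methylated adenosine is read from a C-to-U change next to it. Each of the 4 samples was a sublibrary of a single pool of cortical cells, and the pool joined replicates 1 and 2 as well as cells carrying APOBEC1-YTH and cells carrying APOBEC1-YTHmut, whose YTH domain is mutated. All mice received tamoxifen at 20 mg/kg every 24 h over 5 days, beginning at 6 to 8 weeks of age, and the cortex was taken 7 days after the last dose. The list gives for each site a position, a strand, a gene symbol and a whole number, called the site count here. Sample, genotype and cell type are not given in it, so no group can be compared with another, there are no replicates and no p-value was computed. Whether sites edited by the mutant fusion were removed is not stated, so listed sites may include edits that do not depend on m6A.

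Small GTPases are molecular switches that are on when bound to GTP and off when bound to GDP. Guanine nucleotide exchange factors load them with GTP, GTPase-activating proteins make them hydrolyse it, and GDP dissociation inhibitors hold them inactive in the cytosol. In neurons, Rac and Cdc42 shape the actin of growth cones and dendritic spines, Ras and Rap carry signals from receptors, and Arf and Rab direct membrane traffic. The modification m6A is placed on the A of RAC or the longer DRACH motif (R is A or G, D is A, G or T, H is A, C or T), and it is known to be dense in long exons and around stop codons. At a methylated motif, the C that DART-seq edits is the one after the A.

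Regulators were found in the list more often than protein-coding genes in general. GENCODE M21 annotates 137 protein-coding genes with these prefixes, and 47 of them (34.3%) had at least 1 site, while 17.4% of all 21924 protein-coding symbols did. Of the 47, 11 (23.4%) had 10 or more sites, against 16.9% of the 4206 listed genes. The median was 3 sites per regulator and 2 per other gene. The regulators also had longer transcripts, with a median coding sequence (CDS) of 3261 nt against 1674 nt for the other listed genes, and the part of length in these shares was not tested. The list holds no expression values, and a regulator without a site may be unexpressed or thinly read.

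Sites were concentrated in a few members. Arhgap5 with 60, Rasgrp1 with 48 and Arhgap32 with 42 held 150 of the 393 sites (38.2%), and the 11 members with 10 or more sites held 282 (71.8%). At the other end, 9 regulators had 1 site and 11 had 2. In the whole list, 46 genes had more sites than Arhgap5.

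**Figure D1:**
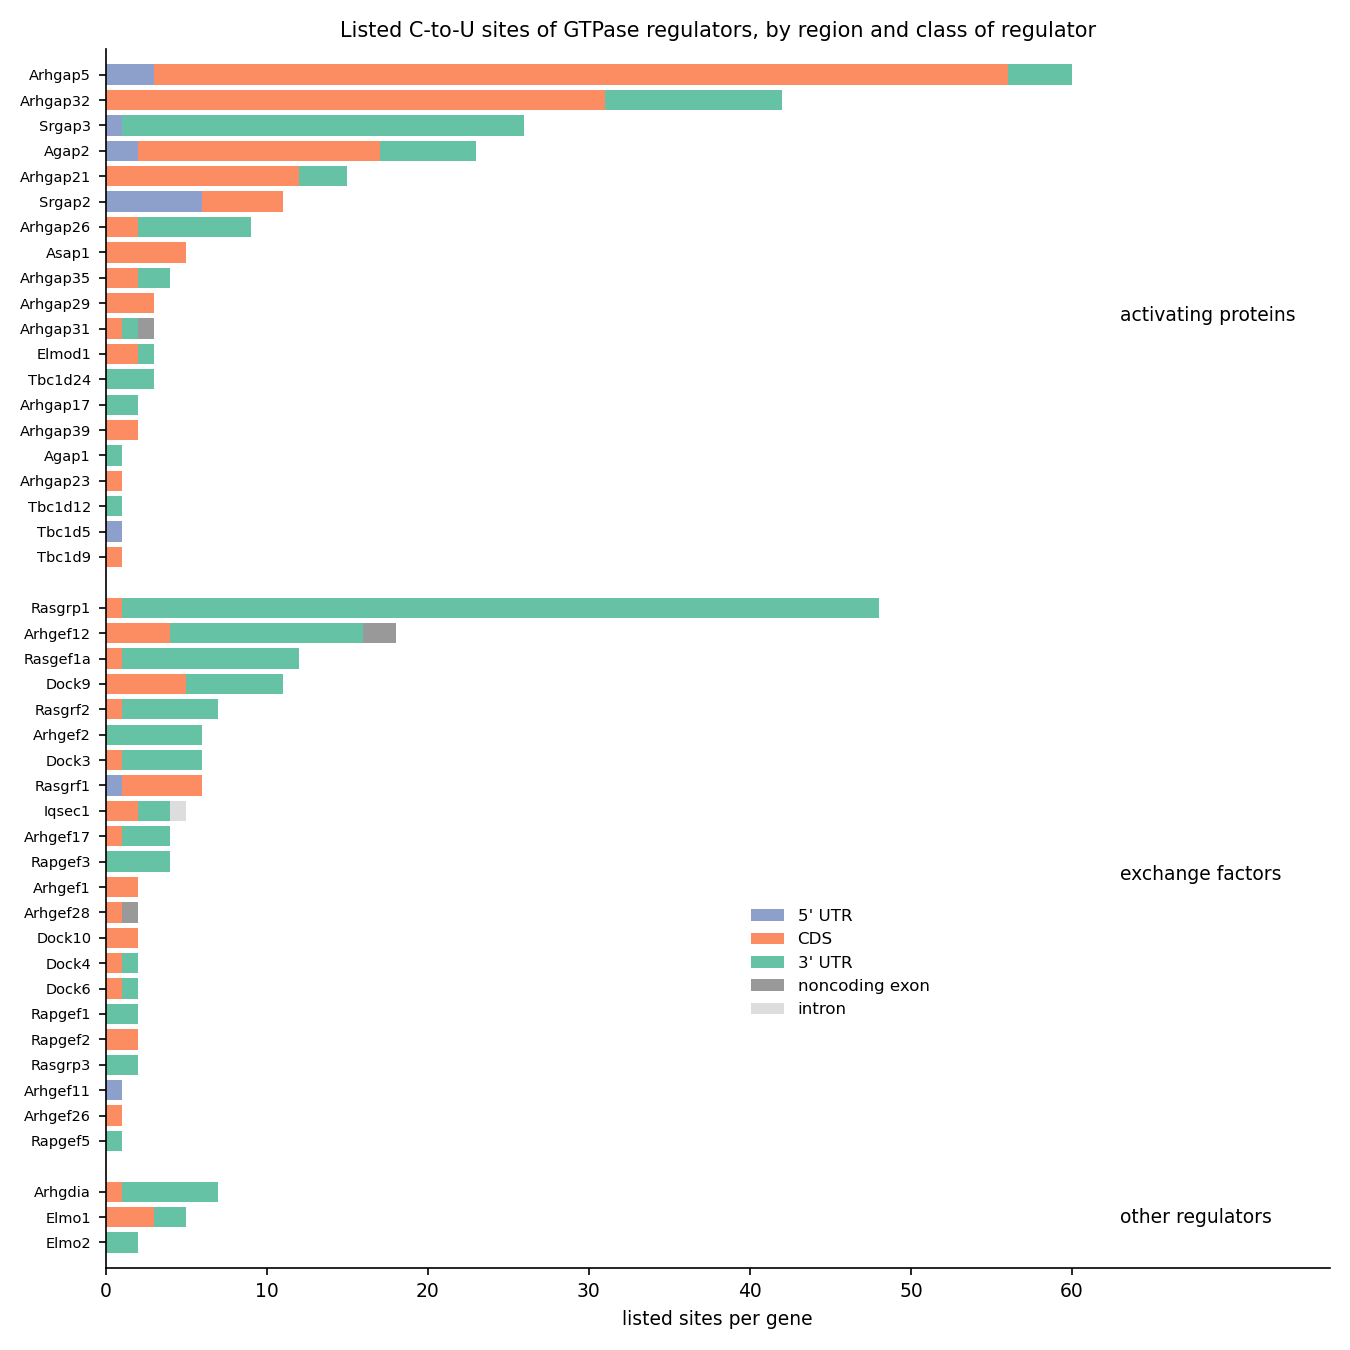
Number of listed sites (horizontal axis) for each of 45 of the 47 regulators, grouped into activating proteins, exchange factors and others and coloured by the region of the transcript. Arhgap5 and Arhgap32 are mostly coding sequence, while Rasgrp1 and Srgap3 are almost wholly 3' UTR, and the 4 Tbc1d genes have 6 sites in all.

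The families differed in how many of their members were listed. Of 16 regulators of Ras and Rap 9 had a site, with 84 sites, and of 12 regulators of Arf 5 had a site, with 37. The Tbc1d genes, whose TBC domain acts on Rab GTPases, were listed least often of these groups. Of 30, 4 had a site and they held 6 sites together, 3 of them in Tbc1d24. Over all protein-coding symbols 3824 of 21924 (17.4%) had a site, so the Tbc1d genes lay near that share. The 10 listed Arhgap genes alone held 141 sites, while 24 other Arhgap genes had none.

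Exchange factors and activating proteins differed in where their sites lay. The 24 listed exchange factors had 163 sites, of which 120 (73.6%, 95% Wilson interval 66.4 to 79.8) were in the 3' UTR and 36 (22.1%) were coding. The 20 listed activating proteins had 216 sites, of which 67 (31.0%, 25.2 to 37.5) were in the 3' UTR and 135 (62.5%) were coding. Gene by gene, 8 of the 10 exchange factors with 5 or more sites had over 50% of them in the 3' UTR, against 2 of the 8 such activating proteins, Srgap3 and Arhgap26. These values depend on placing the 3' UTR before the CDS where transcripts differ. Dock9 had 6 of 11 sites in the 3' UTR by that rule, but 4 there and 7 coding on its longest coding transcript. With the CDS placed first, the 3' UTR shares were 63.8% for exchange factors and 29.6% for activating proteins. The difference narrows when few genes are given less weight. With only the site of highest count of each gene it was 54.2% against 50%, and without Arhgap5, Rasgrp1 and Arhgap32 it was 63.5% against 45.6%. The intervals cover counting error only, and sites of a gene are not independent.

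Among the activating proteins, Arhgap5 led. It encodes a GTPase-activating protein of cell spreading and neurite growth. Its 60 sites had counts from 3 to 24 with a median of 4, and 53 were coding, 4 lay in the 3' UTR and 3 in the 5' UTR. Exon 2 of its 7 exons, which is 3861 nt long, held 51 of them. In that exon 38 of the 116 RAC cytosines (32.8%) were listed, while its last exon, at 4965 nt still longer, had 3 of 117 (2.56%). Of 451 internal exons of 1000 nt or more with at least 10 RAC cytosines in all listed genes, 248 had a site, and 4 had more sites than this exon. A listed share of RAC cytosines higher than 32.8% was found in 5 of them, and the median over the 248 was 3.33%.

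The sites of Arhgap5 ran along most of exon 2 in groups. The densest held 12 sites within 108 nt, between 3361 and 3254 nt before the end of the stop codon, with counts from 3 to 24. Another, with 8 sites and counts up to 14, spanned the junction of exons 2 and 3. The windows show 7 of the 8 sites of exon 2 with a count of 13 or more, with the edited C and the 2 bases before it in capitals, to let their motifs be compared. All lie on the plus strand of chromosome 12 in mm10 and in the CDS. The site with a count of 24 is centred in chr12:52517446-52517466, and the others follow in order of position.
Arhgap5, count 24: tcccattcGACcttctgagca
Arhgap5, count 16, chr12:52517407-52517427: atgaaactGACcatatagaca
Arhgap5, count 17, chr12:52517416-52517436: accatataGACaaaattaatg
Arhgap5, count 14, chr12:52517495-52517515: ccatgtacAACatctgatatc
Arhgap5, count 13, chr12:52519797-52519817: acttccaaAACaaaaagaaaa
Arhgap5, count 14, chr12:52519814-52519834: aaaaggaaGACatcgtggaag
Arhgap5, count 14, chr12:52519857-52519877: cctgttgaAACttggaaaggt
The edited C followed GA in 4 of these windows and AA in 3, so all 7 are RAC, while the bases around the RAC differ. The highest of them, at CGACC, is outside DRACH because a C stands before the RAC.

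Its paralog had the same layout with few sites. Arhgap35, which encodes the related activating protein, was picked for this comparison after its values were seen. Its exon 2 is 3872 nt long and offers 113 RAC cytosines, about as many as exon 2 of Arhgap5, yet 1 of them (0.885%) was listed. The gene had 4 sites in all, with counts of 3, 3, 3 and 15, and the site with 15 lay in the 3' UTR. The abundance of the 2 transcripts is not in the list, and its part in this difference was not tested.

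Arhgap32, a GTPase-activating protein of neurons that binds NMDA receptor complexes, held the highest counts of all regulators. Of its 42 sites 31 were coding and 11 lay past the stop codon, with a median count of 3 and a maximum of 92. It carried 7 of the 24 regulator sites with a count of 20 or more. A group of 8 sites spanned 129 nt across the stop codon, from 24 nt before its end to 104 nt after it, and included counts of 34, 36, 92 and 46. The next highest, 73, lay in the CDS 2565 nt before the end of the stop codon. These 5 windows are on the plus strand of chromosome 9.
Arhgap32, CDS, count 73, chr9:32257370-32257390: aacttacaGACaaatctccca
Arhgap32, CDS, count 34, chr9:32261117-32261137: cacatcccGACacgcagatcc
Arhgap32, 3' UTR, count 36, chr9:32261184-32261204: ggacagtgGACtgttctattt
Arhgap32, 3' UTR, count 92, chr9:32261207-32261227: tttccaatAACcaaaaagatt
Arhgap32, 3' UTR, count 46, chr9:32261242-32261262: aagctacaAACcccttggcca
The windows differ from each other around the motif, and 3 of the 5 read GAC. The last exon of Arhgap32 is 9545 nt long, and after the group at the stop codon it had 5 further sites, with counts from 3 to 6.

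Srgap3 and Srgap2 are Slit-Robo GTPase-activating proteins, which bend membranes through an F-BAR domain and shape neurites and spines, and their sites lay at opposite ends. Of the 26 sites of Srgap3, 25 lay in the 3' UTR, 0 were coding and 1 lay in the 5' UTR, with counts from 3 to 17. They formed a group of 11 between 463 and 624 nt after the stop codon and a looser set of 13 between 2609 and 3389 nt after it, with none between the 2 sets. Of the 11 sites of Srgap2, 6 lay in the 5' UTR and 5 in the CDS, and its last exon of 4490 nt, which offers 121 RAC cytosines, had 0. Srgap1 had no site.
The site with the highest count in Srgap2, 72, is the base directly before the start codon (chr1:131524995-131525015, minus strand), and in its window the capitals end where the atg begins. It is shown with the highest site of Srgap3, which has a count of 17 (chr6:112720169-112720189, minus strand).
Srgap2, 5' UTR: agaaggaaAACatgacgtctc
Srgap3, 3' UTR: tgatgcagAACaaatggaaaa
In the whole list 8 sites lay at the base before a start codon. Their median count was 4.5, and 0 had a higher count than the site of Srgap2, which was looked at because of that count. The other 5' UTR sites of Srgap2 had counts of 3, 3, 4, 5 and 16.

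Arhgap21, a GTPase-activating protein of Cdc42 at the Golgi, had 15 sites, 12 in the CDS and 3 in a 3' UTR of a shorter transcript. On its longest coding transcript all 15 were coding, 11 of them in the last exon. The highest count was 13, in the CDS at chr2:20849188-20849208 (minus strand), in a run rich in A.
Arhgap21: aaaggaaaAACatcaaacgca
Arhgap26, an activating protein involved in endocytosis, had 9 sites with 7 in the 3' UTR. Its 2 highest counts, 33 and 23, lay 58 nt apart, at 698 and 640 nt after the stop codon. The remaining 5 listed Arhgap genes had 1 to 3 sites each, with counts up to 6.

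**Figure D2:**
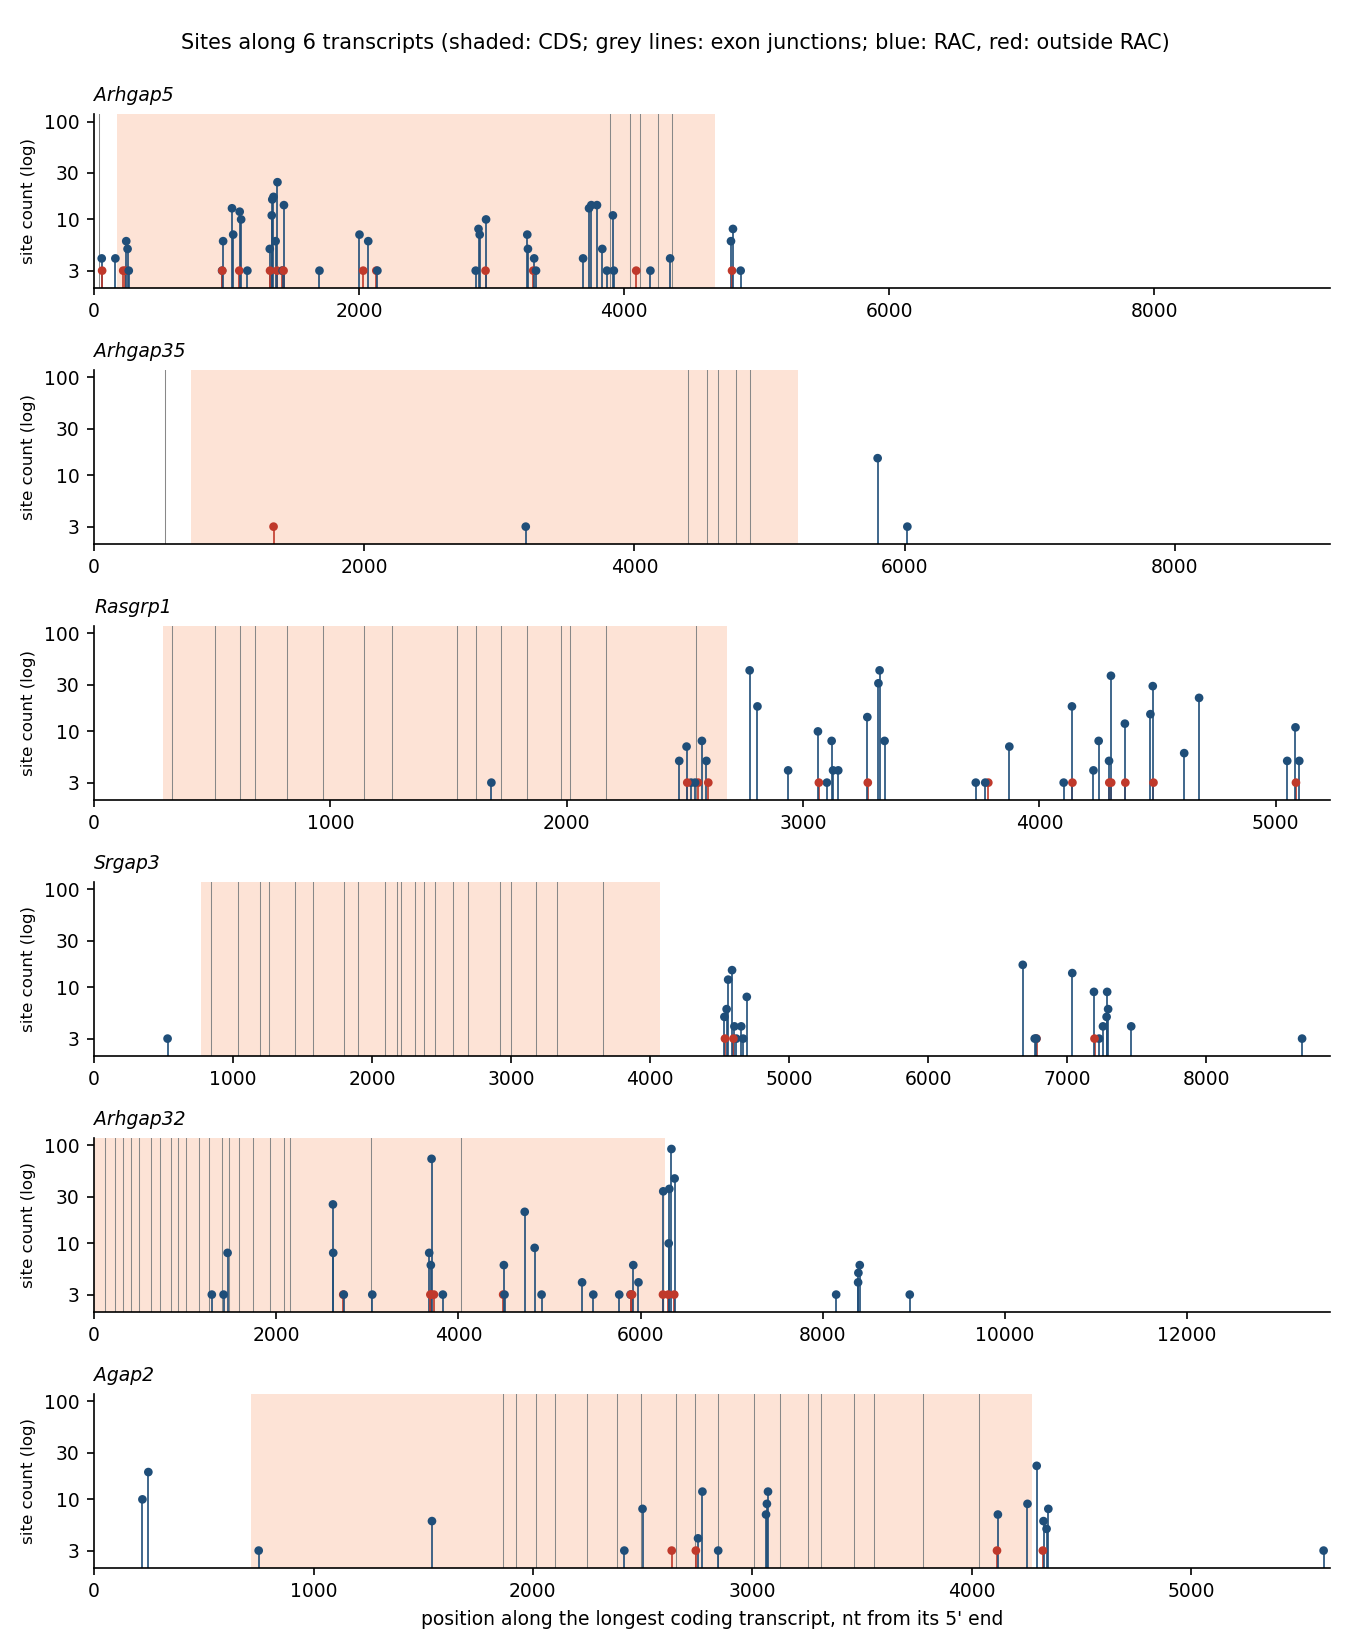
Position of each site along the longest coding transcript of 6 regulators (horizontal axis, nt) and its site count (vertical axis, log scale). Shading marks the CDS, grey lines exon junctions, blue sites RAC and red sites other contexts. Arhgap5 is filled across its long exon 2, Arhgap35 is nearly empty at the same place, and Arhgap32 peaks at the stop codon.

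Among the exchange factors of Ras, Rasgrp1 led with 48 sites. It encodes a calcium- and diacylglycerol-regulated protein that activates Ras. Its counts ran from 3 to 42 with a median of 5, and 47 of its sites were placed in a 3' UTR, leaving 1 coding. A shorter annotated transcript sets that number: on the longest coding transcript 38 sites lay after the stop codon and 10 in the CDS. The last exon, 2684 nt long, held 42 sites, and 31 of its 79 RAC cytosines (39.2%) were listed. Of 3672 last exons with at least 10 RAC cytosines in the listed genes, 100 had a higher share and 55 had more sites, and the median over the 2594 with a site was 3.85%. Unlike the peak of Arhgap32, the sites were spread over the whole 3' UTR, from 94 to 2420 nt after the stop codon. The 6 with a count of 20 or more lay 94, 639, 644, 1623, 1800 and 1996 nt after it, with counts of 42, 31, 42, 37, 29 and 22. Both sites with a count of 42 had the bases TGAC (chr2:117282438-117282458 and chr2:117281888-117281908, minus strand).
Rasgrp1, 94 nt after the stop codon: gattgactGACtttaaaaggg
Rasgrp1, 644 nt after the stop codon: ttgaacttGACattgtctaat
The related Rasgrp3 had 2 sites, with counts of 4 and 7, and Rasgrp2 and Rasgrp4 had none.

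Rasgef1a, another exchange factor of the Ras group, had 12 sites, 11 of them in the 3' UTR, with a median count of 5.5 and a maximum of 26. The sites gathered in a short run of CAA units, where 7 listed cytosines fell within 19 nt. In the window of 30 nt (chr6:118090595-118090624, plus strand) every capital is a listed C, with counts of 25, 3, 26, 15, 23, 5 and 3 from left to right.
Rasgef1a: gaaaaaCCaaCaaCaaCaaCccaaCtctgc
Each listed C of this run but the second capital follows AA. Of those that follow AA only the first is in DRACH, because at the others a C stands before the RAC. Outside that run the counts were 3, 3, 5, 6 and 13. Rasgrf1 and Rasgrf2, calcium- and calmodulin-responsive exchange factors, had 6 and 7 sites with no count above 9. Those of Rasgrf2 were in the 3' UTR in 6 of 7 cases, and those of Rasgrf1 in the CDS in 5 of 6. Of the 7 annotated Rapgef genes, which act on Rap, 4 had a site and they held 9 together, led by Rapgef3, the cAMP-activated Epac, with 4.

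Exchange factors of the Arhgef and Dock families had at most 18 sites per gene. Arhgef12, an exchange factor coupled to G protein receptors, had 18 sites, 12 of them in the 3' UTR, and its highest count of 29 lay in a noncoding exon (chr9:43024357-43024377, minus strand) beside a run of A. At 4 of its 3' UTR sites, with counts of 3 or 4, an annotated gene lies on the opposite strand. The Dock proteins activate Rac and Cdc42, and 6 of 11 annotated Dock genes had a site, with 24 in all. Dock9 had 11 of these, and 1 of them, in the CDS, had a count of 38, while the other 10 had counts of 3 or 6. The windows show the highest sites of Arhgef12 and Dock9.
Arhgef12, noncoding exon: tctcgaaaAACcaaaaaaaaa
Dock9, CDS, chr14:121599790-121599810: acagcctcAACccccaacatc
Dock3, a Rac activator of axon growth, had 6 sites with counts from 3 to 6, while Dock4, Dock6 and Dock10 had 2 each. Elmo1 and Elmo2, the partners of Dock proteins, had 5 and 2 sites. Arhgdia, the widely expressed GDP dissociation inhibitor, had 7 sites with counts from 3 to 10. All 7 lay in its last exon within 400 nt of the stop codon, and Arhgdib and Arhgdig had none.

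Among the regulators of Arf, Agap2 led with 23 sites. It encodes PIKE, a GTPase-activating protein of Arf that also binds phosphoinositide 3-kinase. Its median count of 6 was the highest among the members with 10 or more sites, and the counts ran from 3 to 22. The sites were spread over the transcript, with 2 in the 5' UTR, 15 coding and 6 past the stop codon. A group of 6 spanned the stop codon, from 21 nt before its end to 74 nt after it, and held the highest count. The 5' UTR pair, 27 nt apart, had counts of 10 and 19.
Agap2, 5' UTR, count 19, chr10:127079143-127079163: accctcaaGACccccctttcc
The window, on the plus strand, reads AGAC and is rich in C. Asap1, a GTPase-activating protein of Arf at adhesion sites, had 5 sites, all in the CDS, with counts of 3, 3, 4, 4 and 22, and its last exon had 0 of 72 RAC cytosines listed. Iqsec1, an exchange factor of Arf6, had 5 sites with counts up to 7, and Elmod1 had 3. Agap1, with the longest last exon of the Arf group at 8927 nt, had 1 site.

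**Figure D3:**
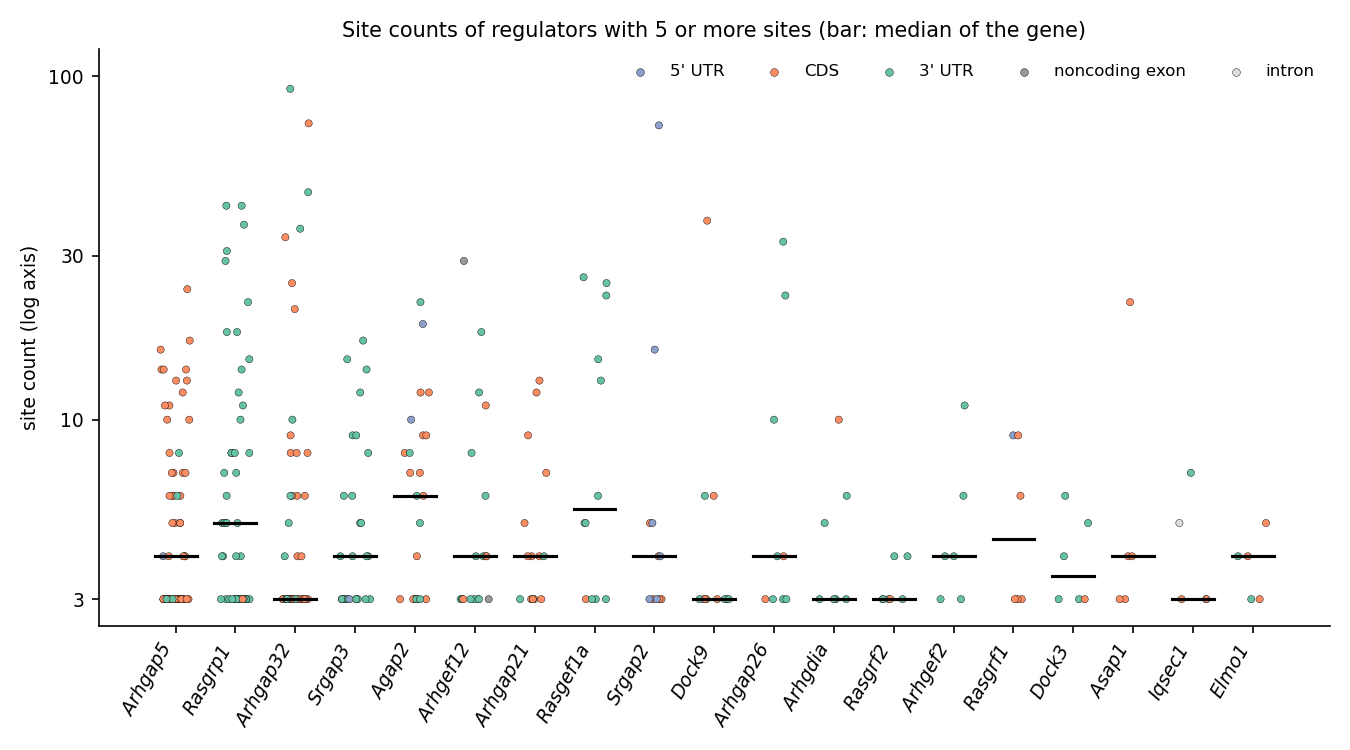
Site count (vertical axis, log scale) of every site of 19 of the 20 regulators with 5 or more sites, coloured by region, with a bar at the median of each gene. The counts of 72 in Srgap2 and 38 in Dock9 stand alone above their genes, while Rasgrp1 and Arhgap32 have many high sites.

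Counts at the regulators were low against the rest of the list. The median was 4 in both, but the 90th percentile was 14 at the regulators and 24 elsewhere. A count of 20 or more was found at 24 regulator sites in 10 genes (6.11%, 4.14 to 8.93), against 12.2% of the other sites. A count of 100 or more was carried by 565 sites of the list and by 0 regulator sites. A count of 3, the lowest in the list, was found at 182 regulator sites (46.3%), against 40.98% of the others. How many reads or cells cover a transcript is not in the list, so these counts are not levels of methylation.

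By region, the regulators had a higher share of coding sites than the rest of the list. Their coding sequences were also longer, with a median of 3261 nt against 1674 nt, and their 3' UTRs less so, with 2209 nt against 1917 nt. The part of length in these shares was not tested, and a higher coding share is not a higher density of sites in the CDS. The CDS held 175 of the 393 sites (44.5%, 39.7 to 49.5) against 25.8% of the other sites, and the 3' UTR 197 (50.1%, 45.2 to 55.0) against 62.1%. The 5' UTR held 16 sites (4.07%) against 1.97%, and 6 of these belong to Srgap2. Noncoding exons, which include those of noncoding genes, held 1.02% of regulator sites and 9.88% of the others, while all members are protein-coding. Over sites in the CDS and UTRs alone, the coding share was 45.1% against 28.7% and the 3' UTR share 50.8% against 69.1%. Part of this difference rested on Arhgap5: without it the CDS share was 36.6% (31.6 to 41.9) and the 3' UTR share 57.96% (52.6 to 63.1). Within 400 nt of the stop codon lay 74 of 376 sites (19.7%, 15.98 to 24.0), against 30.4% of the others, and without Arhgap5 the share was 21.8%. The lower share was on the far side of the stop codon, where the first 400 nt of the 3' UTR held 9.57% of regulator sites and 22.6% of the others. A window of fixed size is a smaller part of the longer regulator transcripts (median 6222 nt against 4426 nt), and the part of length was not tested.

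**Figure D4:**
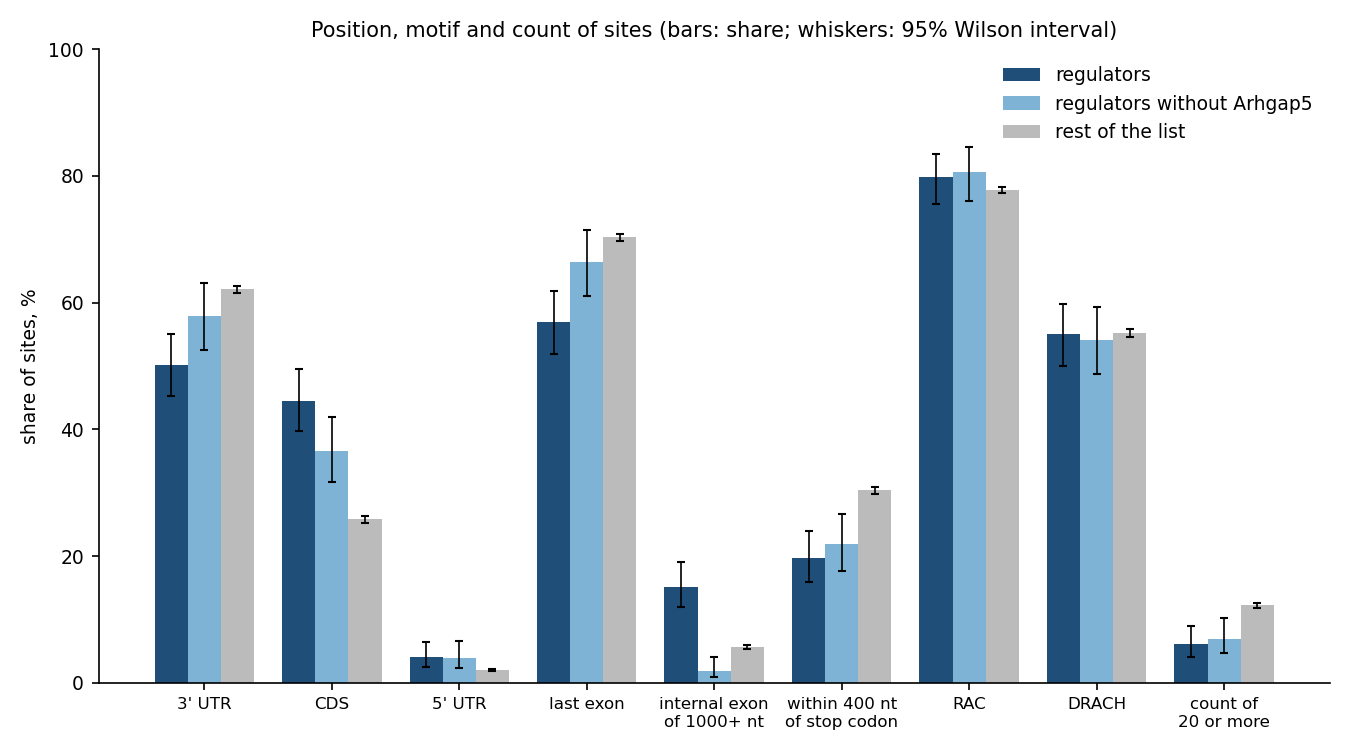
Share of sites (vertical axis, %) in each region, exon class, motif and count class for the regulators, the regulators without Arhgap5 and the rest of the list, with 95% Wilson intervals as whiskers. Without Arhgap5 the CDS share is 36.6% against 25.8% in the rest, or 37.2% against 28.7% over sites in the CDS and UTRs alone. The regulators have longer coding sequences, and the part of length was not tested. Their share in long internal exons falls from 15.2% to 1.90% without Arhgap5.

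By exon, the excess in long internal exons rested on Arhgap5. Internal exons of 1000 nt or more held 57 of 376 regulator sites (15.2%) against 5.66% of the others, and 51 of the 57 were in exon 2 of Arhgap5. Counted per RAC cytosine, 10.5% were listed in such exons of the regulators against 4.18% in the rest of the list, and 1.69% without Arhgap5. The other long internal exons, in Arhgap21, Iqsec1, Arhgap35, Arhgap39 and Arhgap23, had 0 to 2 sites each. In internal exons from 400 nt up to but below 1000 nt, 5.83% of the RAC cytosines of regulators were listed against 3.28%, in 3 genes. Internal exons under 400 nt, which held the most RAC cytosines of the regulators (3867), had a lower share, 1.58% against 2.13%. In first exons it was 2.05% against 1.49%. In last exons the shares were close, 4.98% and 5.35%. Within the last exon the split differed: 6.45% of the coding RAC cytosines were listed in the regulators and 3.34% in the rest, while in the 3' UTR part it was 4.73% and 5.70%. The 32 listed coding RAC cytosines in the last exon belonged to 10 regulators. Most of them lay in Arhgap32 and Arhgap21, which had 16 and 11 coding sites of any context there.

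**Figure D5:**
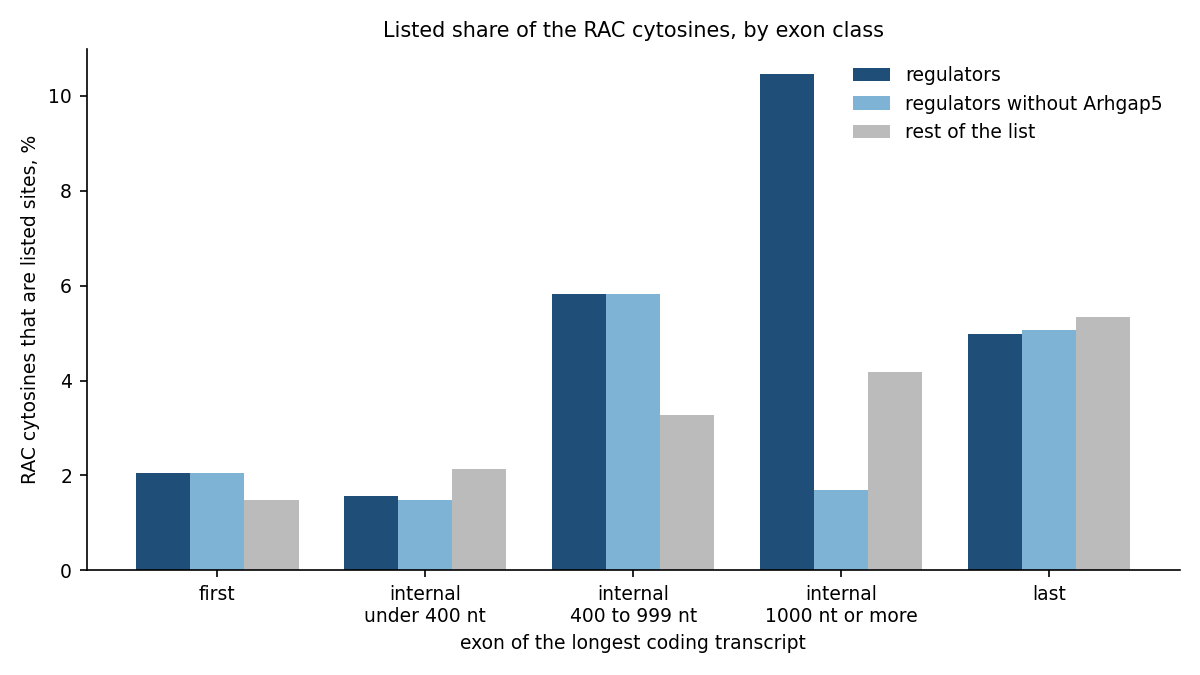
Percentage of the RAC cytosines of an exon class that are listed sites (vertical axis), by class of exon on the longest coding transcript, for the regulators, the regulators without Arhgap5 and the rest of the list. The bar for long internal exons falls from 10.5% to 1.69% without Arhgap5, and last exons are near 5% in all 3 sets.

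The motif at the edited C was like that of the list. Of 391 sites with a sequence context 312 (79.8%, 75.5 to 83.5) were RAC, against 77.7% of the others, and 55.0% were DRACH against 55.2%. All 79 sites outside RAC had a count of 3, and so had all 6218 in the rest of the list, which is a property of the list and not of these genes. Of the 79, 58 (73.4%) had a listed RAC site of the same gene within 10 nt, against 67.6% elsewhere. Among the 209 RAC sites counted 4 or more times, AGACA was the commonest context with 18 (8.61%, against 6.12% of the others). AAACA, which leads the rest of the list with 14.5%, had 16 (7.66%). In the CDS, 52, 59 and 77 of 188 edited cytosines stood at codon positions 1, 2 and 3, or 27.7%, 31.4% and 41.0%, against 28.7%, 25.1% and 46.2% in the rest.

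Regulators on a chosen list outside these prefixes were listed more often, with region shares close to theirs. Of 101 other exchange factors, activating proteins and dissociation inhibitors on this list, 53 (52.5%) had a site. The share was 34.3% for the prefix members and 17.4% for all protein-coding symbols. The list was drawn up from general knowledge, with earlier results of these data known. It is a choice of names and not whole families, so its share is not a rate for such genes in general. The 53 genes held 300 sites, of which 42.7% were in the CDS and 53.0% in the 3' UTR. Among them, Chn1 (chimaerin, a GTPase-activating protein of Rac) had 34, Kalrn (an exchange factor of spines) 26 and Myo9a (a myosin with a GTPase-activating domain) 23, with 21 of these in the CDS. The GTPases themselves differed from their regulators. Of 47 small GTPases on a chosen list, which is not the whole family, 22 (46.8%) had a site. They held 303 sites, with 93.4% of them in the 3' UTR and 5.94% coding. Rab6b led with 74 sites, all in the 3' UTR, followed by Rab3c with 42 and by Rhob, Arf3, Rab6a and Rab7 with 20 each. GTPases have short coding sequences, and the part of CDS length was not tested.

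The cortex label was checked against markers with a site: 5 of 6 for neurons (not Gad1), 3 of 4 for astrocytes (not Gfap), 3 of 3 for oligodendrocytes, 2 of 3 for microglia (not P2ry12) and 3 of 3 for endothelial cells. The list therefore draws on several cell types, and which cells carried the sites of a regulator cannot be told from it.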

How the data were processed

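The authors deposited 1 site list without a header, in which each site has a whole-number count that was treated as an unnormalized count. Whether reads or cells are counted, and which filters were set, is not given in the sources used. The submitters' processing notes name STAR 2.7.5 and the build mm10. Per the series text, C-to-U sites were found with Bullseye. The text also describes sorted neuronal nuclei, which were not analysed here. Read depth is unknown.

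Sites were placed with Python 3.11.15 and pandas 2.3.3 on GENCODE M21, which uses mm10 coordinates. All 393 regulator sites matched a gene by symbol, and the 391 with sequence context had a C on their strand. Placement was tested on simulated data. Where transcripts differ, a 3' UTR placement went before a coding one, that before the 5' UTR, and noncoding exons and introns came last. Distances and exons refer to the longest coding transcript, which holds 376 of the 393 sites, and the stop codon counts as CDS. Windows of 21 nt are transcript sequence, 5' to 3', with 10 nt on each side of the edited C. Groups of sites are separated by gaps over 100 nt. Wilson intervals (95%) cover counting error only.

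The members, the lists and the classes were chosen with earlier results of these data known. Genes named were the 12 with the most sites, those of the 10 highest counts, the leader of each prefix family, those mainly in the CDS and the GDP dissociation inhibitors. Windows by rule were the highest site of each of the 10 members with the most sites and the 5 highest counts. Other genes and windows were added after their values were seen. Chromosome 18, which holds Arhgap26, has no window. Some genes and 1 window that these rules name are not reported here.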

Additional observations from a re-analysis of the deposited data

How the results depend on the processing

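Of 95 recomputed values 67 were counted as moving little. Every share among them stayed within the 95% Wilson interval of its main value. The 3' UTR share of exchange factors on the longest coding transcript, 66.9% against 73.6%, was among them. Counts and medians were counted as moving little where they changed by a ratio of at most 1.5. This took in a fall from 393 to 288 sites with sites within 10 nt merged. It also took in, at a site count of 4 or more, a median of 2 sites per gene against 3 and a median count of 6 against 4. The 28 others follow. A site count of 4 or more left 211 sites and a DRACH share of 70.8%. A count of at least 2 times the list median of 4 left 93 sites in 23 genes, a median count of 12, 15.4% within 400 nt of the stop codon and 69.6% DRACH. Since no site outside RAC exceeds a count of 3, both minimums raise the DRACH share by construction. It was 68.9% for RAC sites only, 62.9% with sites within 10 nt merged and 79.8% with RAC in its place. Without Arhgap5, the 3' UTR share was 57.96%, the CDS share 36.6%, the last exon share 66.5% and the 3' UTR share of activating proteins 40.4%. Leaving out Arhgap5, Rasgrp1 and Arhgap32, an alternative chosen after seeing the data, left 243 sites with 55.6% in the 3' UTR, 37.0% in the CDS and 62.4% in the last exon. The 3' UTR share was then 63.5% for exchange factors and 45.6% for activating proteins. With 1 site per gene the CDS share was 34.0%, the share within 400 nt of the stop codon 15.9%, the DRACH share 60.9% and the 3' UTR share 54.2% for exchange factors and 50% for activating proteins. With CDS placed before 3' UTR, exchange factors had 63.8% in the 3' UTR. On the longest coding transcript the CDS share was 50%, and 13.3% of sites fell within 200 nt of the stop codon. The remaining causes were not tested. Leaving out sites opposite a listed gene moved none of the 11 results, but it removed 3 of the 393 sites, so it could hardly move any. No paired analysis was possible because neither groups nor replicates are given.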

Other observations

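Of the 393 regulator sites, 8 lay in an exon of a gene annotated on the opposite strand: 4 in Arhgef12, 2 in Dock3 and 1 each in Arhgef26 and Iqsec1, with counts of 3 to 6. A C-to-U change would turn the codon into a stop codon at 16 of the 188 coding sites on the longest transcripts (8.51%), against 11.4% in the rest of the list. Of the 393, 176 (44.8%) had another listed site of the same gene within 10 nt, against 48.3%, so a number of sites is not a number of methylated adenosines.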
